A study of Rattus norvegicus with 14 samples.

Results

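Endothelial cells line blood vessels and the inner surface of the heart, and a small set of genes is used to recognise them. The 10 genes examined here are of that kind, taken by symbol: Pecam1, Cdh5, Kdr, Flt1, Tek, Tie1, Vwf, Eng, Emcn and Egfl7. They were read in a culture that was meant to hold heart muscle cells and few other cells. The array's probe table named 11 probe sets for 9 of them, out of 13184 genes in all, and Cdh5 was not analysed here. Where a gene had several probe sets, the brightest over all arrays was used.

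The cells were ventricular myocytes from hearts of 2-day-old Sprague-Dawley pups, grown in dishes after a pre-plating step of 1.5 h that removes cells which attach fast. All groups received either JQ1, an inhibitor of BET bromodomains, or the solvent DMSO alone. The groups were JQ1 with 100 µM phenylephrine (PE, an alpha1-adrenergic agonist that causes myocyte hypertrophy) for 6 h and for 48 h (3 arrays each), DMSO with PE for 6 h (2 arrays) and 48 h (3 arrays), and DMSO for 90 min without PE (3 arrays), called unstimulated here. No source used here gives the JQ1 concentration or says that replicate arrays had separate cultures, and the p-values therefore reflect only how far arrays of a group differ, which may be technical. The labels' treatment text places JQ1 or DMSO before PE, the series' design text places it after PE, and the order stays unknown here.

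These genes have distinct jobs in vessels. KDR and FLT1 are receptors for vascular endothelial growth factors (VEGFs), with KDR carrying most of the mitogenic signal and FLT1 binding ligand tightly. TEK is the receptor for angiopoietins and TIE1 its partner without a strong ligand of its own. Endoglin, the product of Eng, is a co-receptor that helps BMP and TGF-beta ligands signal through ALK1 (Acvrl1), and it is also known on activated fibroblasts, pericytes and macrophages. PECAM1, VE-cadherin (Cdh5) and endomucin (Emcn) sit on the endothelial surface and junctions, von Willebrand factor (Vwf) is stored there for clotting, and EGFL7 is a secreted matrix protein of vessels.

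Promoter windows are shown for Kdr and Eng, which had the largest falls under JQ1 at 48 h, and for Egfl7, which rose. RefSeq windows of the GRCr8 build, 250 bases before to 50 after the start, were matched for 6 of the 9 measured genes, with 7 windows in all, and not for Pecam1, Tek and Vwf. Matches to 3 motif families bound by factors known in endothelial cells are in capitals, on either strand. The letters searched were CGGAAG, with the variant AGGAAG, then CGGAAA with the variant AGGAAA, for the ETS family. They were AGATAA with the variant TGATAA for the GATA family, and ACAAAG with the variant ACAATG for the SOX family. No match overlaps another in the windows shown. The Kdr window lies at chr14:32571813-32572112, plus strand, the Eng window at chr3:36332029-36332328, plus strand, and the upstream one of the pair for Egfl7 at chr3:29805381-29805680, plus strand.
Kdr: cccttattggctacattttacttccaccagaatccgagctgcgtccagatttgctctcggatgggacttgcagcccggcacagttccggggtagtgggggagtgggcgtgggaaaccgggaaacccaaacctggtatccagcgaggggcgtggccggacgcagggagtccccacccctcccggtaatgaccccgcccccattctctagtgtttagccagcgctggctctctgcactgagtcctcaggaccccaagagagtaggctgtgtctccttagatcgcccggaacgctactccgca
Eng: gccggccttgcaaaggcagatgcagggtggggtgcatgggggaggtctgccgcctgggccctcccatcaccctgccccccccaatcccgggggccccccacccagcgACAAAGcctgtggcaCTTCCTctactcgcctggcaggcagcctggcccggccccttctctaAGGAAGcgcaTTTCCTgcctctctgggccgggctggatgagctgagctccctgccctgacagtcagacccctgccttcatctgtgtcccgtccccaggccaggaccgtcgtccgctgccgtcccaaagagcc
Egfl7: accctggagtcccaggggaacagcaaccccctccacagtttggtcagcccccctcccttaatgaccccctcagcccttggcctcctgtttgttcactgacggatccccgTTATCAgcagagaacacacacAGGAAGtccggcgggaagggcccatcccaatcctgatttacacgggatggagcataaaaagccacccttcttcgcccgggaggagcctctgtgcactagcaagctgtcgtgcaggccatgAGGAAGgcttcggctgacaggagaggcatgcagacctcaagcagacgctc
The Kdr window held 0 matches to these letters, the Eng window 3 ETS and 1 SOX, and the Egfl7 window shown 2 ETS and 1 GATA. The other Egfl7 window, at chr3:29808051-29808350 and not shown, held 0 ETS, 0 GATA and 0 SOX matches. An ETS match is common: 65% of 33469 windows of that length held one, against 18.9% for GATA and 29.1% for SOX. TATAAA and the hypoxia element ACGTGC were also searched and had 0 matches in the windows shown, where 14.2% and 5.73% of all windows held one. The match is a description of letters and says nothing of binding in these cells. GC content was 61% in the Kdr window, 68.7% in the Eng window and 59.3% in the Egfl7 window, and the median over all windows was 51.7%.

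Of the 9 measured genes, 5 lay below the dim limit in all 5 groups, and 3 (Tek, Eng and Egfl7) lay above it in all of them. The dim limit, log2 6.23, is the 30th percentile of gene means, and since no detection call was used, a group mean below it may lie near background, where the size of a change is uncertain. The dim genes include the most specific endothelial markers of the set. Pecam1 ran from 3.80 to 4.26, Vwf from 3.79 to 4.24 and Emcn from 3.84 to 4.24 over the 14 arrays, on the log2 scale. Tie1 ran from 4.89 to 5.31 and Flt1 from 5.04 to 5.55. A weak probe set cannot be told from absent RNA here, so the dim values do not show whether endothelial cells were present. The 9 genes were therefore not read together as an endothelial signature, and the levels that can be followed are those of Kdr, Tek, Eng and Egfl7. In bulk RNA, fewer cells of a type and less RNA per cell cannot be told apart.

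The cell type the samples are labelled with was borne out by its own markers. The 16 measured cardiomyocyte markers were above the dim limit in at least 1 group each, and their mean over genes was 13.04 to 13.27 (log2) on every array. Markers of fibroblasts, 16 of 16 above the dim limit in some group, had array means of 9.23 to 10.58, and smooth muscle and pericyte markers 8.59 to 9.35. Of macrophage and leukocyte markers 8 of 15 were dim in all groups, and of 22 further endothelial surface genes 14 were. Across genes, replicate arrays had a Pearson r of 0.998 to 0.9989.

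**Figure D1:**
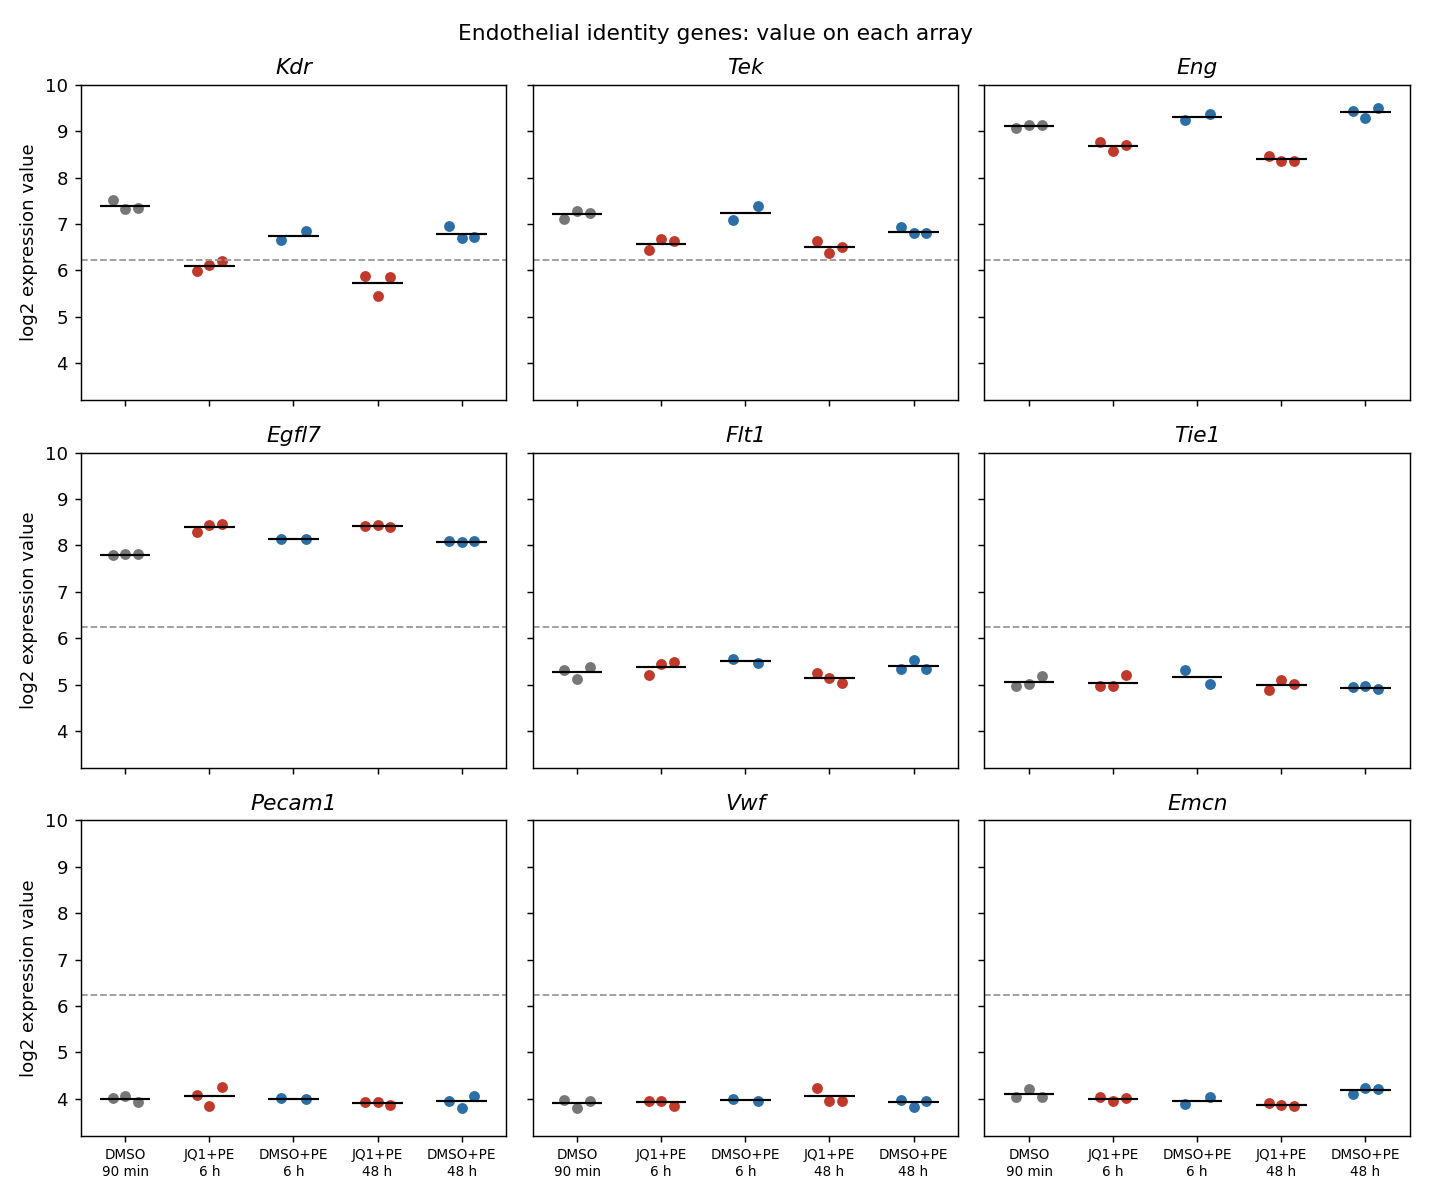
Log2 expression value (y axis) of each gene on each of the 14 arrays in 5 groups (x axis), with points for arrays, bars for group means and a dashed line at the dim limit of log2 6.23. Red points are JQ1 with PE, blue DMSO with PE and grey unstimulated DMSO; Flt1, Tie1, Pecam1, Vwf and Emcn stay below the line in every group, and Kdr falls below it in both JQ1 groups.

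Tek and Eng fell and Egfl7 rose with JQ1 at both times, at levels above the dim limit in all groups. Kdr fell as well, but it was above that limit only without JQ1, so it could be followed only through the groups where it was high. At 6 h 4 of 9 genes passed an adjusted p of 0.05 (limma, Benjamini-Hochberg over all genes), where 54.3% of all 13184 genes did. At 48 h it was 6 of 9, where 59.6% did. Of these, 1 rose and 3 fell at 6 h, and 1 rose and 5 fell at 48 h. The arrays of the groups did not overlap for 5 of 9 genes at 6 h, where 66% of all genes had no overlap, and for 6 of 9 at 48 h, where 64.8% had none. The shares of genes that passed, and of genes without overlap, are not a result about these genes as a set. By direction, 28.8% of all genes fell and 25.5% rose at 6 h, and 29.6% fell and 30% rose at 48 h; the difference between these shares and those of the 9 genes was not tested. Among all genes called, 47% were raised at 6 h and 50.4% at 48 h, and with arrays centred on their medians 61.1% and 63.7% were.

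Kdr, the main VEGF receptor, had 5.98, 6.11 and 6.20 with JQ1 and PE for 6 h, against 6.65 and 6.85 with DMSO and PE for 6 h. All 3 JQ1 arrays lay below both DMSO arrays. The log2 fold change was -0.65 ± 0.130 (SE; limma adjusted p = 8.9e-04). At 48 h Kdr had 5.88, 5.45 and 5.87 with JQ1, against 6.95, 6.70 and 6.72 with DMSO. The groups did not overlap, and the change was -1.06 ± 0.116 (limma adjusted p = 4.1e-06), or 2.08-fold lower with JQ1. The JQ1 groups were below the dim limit, so these folds may understate the change.

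Eng, the ALK1 co-receptor, had 8.76, 8.57 and 8.71 with JQ1 for 6 h, against 9.24 and 9.38 with DMSO, a log2 fold change of -0.63 ± 0.073 (limma adjusted p = 9.9e-06). At 48 h it had 8.47, 8.36 and 8.36 with JQ1, against 9.43, 9.29 and 9.51 with DMSO. No JQ1 array reached a DMSO array at either time. The change at 48 h was -1.01 ± 0.066 (limma adjusted p = 2.8e-08), or 2.02-fold lower with JQ1, and it was larger than at 6 h: the difference of the JQ1 effects was -0.38 ± 0.098 (limma adjusted p = 0.00805).

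Tek, the angiopoietin receptor, had 6.44, 6.68 and 6.63 with JQ1 for 6 h, against 7.08 and 7.38 with DMSO. At 48 h it had 6.64, 6.37 and 6.51 with JQ1, against 6.93, 6.80 and 6.80 with DMSO. The groups did not overlap at either time. The log2 fold changes were -0.65 ± 0.105 at 6 h (limma adjusted p = 1.7e-04) and -0.34 ± 0.094 at 48 h (limma adjusted p = 0.00731). Repeating quantile normalization moved the 48 h change to -0.21 (limma adjusted p = 0.0502), which ended that call.

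Egfl7, the secreted vessel matrix protein, went the other way. It had 8.29, 8.44 and 8.46 with JQ1 for 6 h, against 8.14 and 8.13 with DMSO, and 8.41, 8.45 and 8.39 with JQ1 for 48 h, against 8.09, 8.07 and 8.10 with DMSO. Every JQ1 array was above every DMSO array of its time. The log2 fold changes were 0.26 ± 0.048 at 6 h (limma adjusted p = 5.0e-04) and 0.33 ± 0.043 at 48 h (limma adjusted p = 1.9e-05). Its dimmer probe set gave 0.26 at 6 h, which did not pass (limma adjusted p = 0.0504 over probe sets), and 0.47 at 48 h, which did (limma adjusted p = 5.6e-04).

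Of the 5 dim genes, 2 passed at 48 h of JQ1. Emcn had 3.91, 3.87 and 3.84 with JQ1, against 4.11, 4.24 and 4.20 with DMSO (-0.31 ± 0.057, limma adjusted p = 3.8e-04), with no overlap, at values far below the dim limit. Flt1, the high-affinity VEGF receptor, had 5.26, 5.15 and 5.04 with JQ1, against 5.33, 5.52 and 5.33 with DMSO (-0.24 ± 0.090, limma adjusted p = 0.035). The Flt1 call was lost with several alternatives, and the gene's other probe set gave 0.04 (limma adjusted p = 0.76 over probe sets). Its values were 4.51, 4.75 and 4.46 with JQ1, against 4.41, 4.49 and 4.71 with DMSO, and these overlapped. Pecam1, Vwf and Tie1 did not pass at either time, with log2 fold changes between -0.12 and 0.14, except that Vwf passed at 48 h when arrays were centred on their medians (0.24, limma adjusted p = 0.0163).

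**Figure D2:**
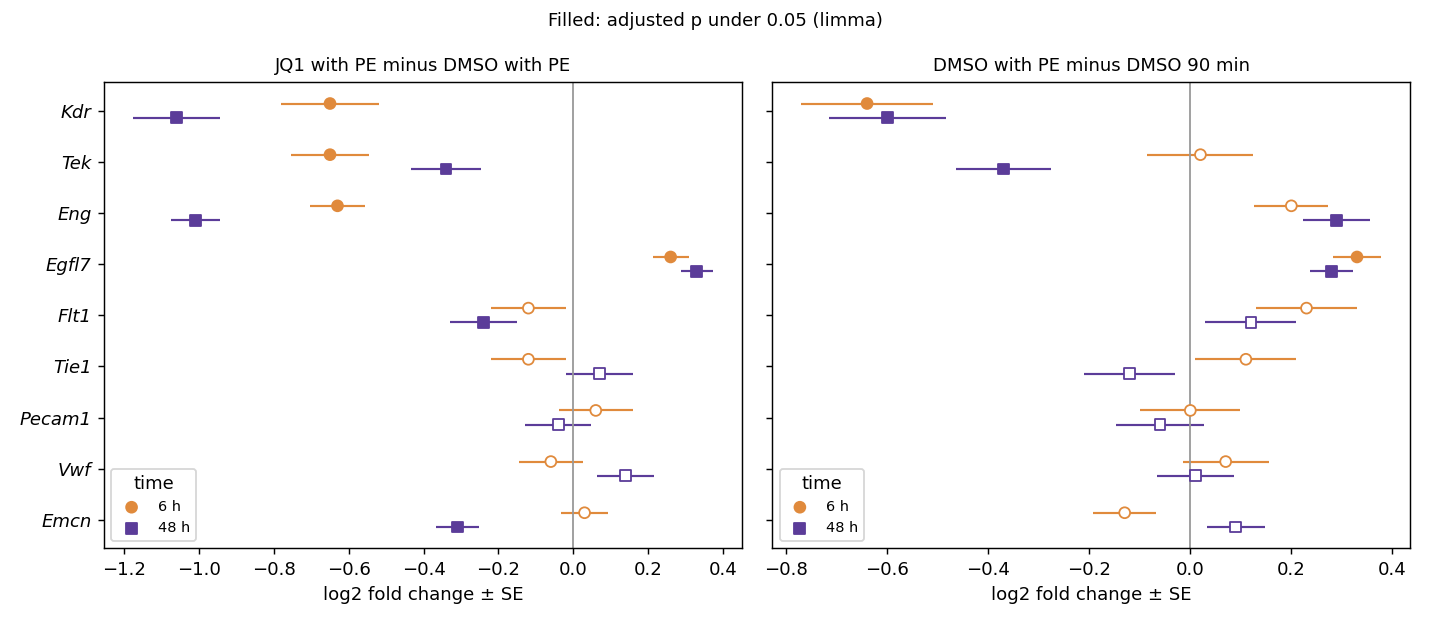
Log2 fold change ± SE (x axis) of each gene for JQ1 with PE minus DMSO with PE (left) and DMSO with PE minus unstimulated DMSO (right), at 6 h (circles) and 48 h (squares); filled symbols passed an adjusted p of 0.05 in limma. Kdr, Tek and Eng lie left of 0 and Egfl7 right of it under JQ1 at both times.

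The response to PE was read against the unstimulated cells at 90 min, so the effects of PE and of time in culture cannot be told apart, and both PE comparisons share those 3 arrays. Kdr was lower with PE and Egfl7 higher, at both times, and Tek was lower and Eng higher at 48 h. At 6 h 2 of 9 genes passed, where 37.2% of all genes did, and at 48 h 4 of 9, where 44.1% did. The arrays did not overlap for 5 of 9 genes at 6 h, where 53.9% of all genes had no overlap, and for 4 of 9 at 48 h, where 54% had none. The counts are again near or below those over all genes.

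Kdr had 6.65 and 6.85 with PE for 6 h and 6.95, 6.70 and 6.72 with PE for 48 h, against 7.51, 7.32 and 7.34 unstimulated. Every PE array lay below every unstimulated array, and the log2 fold changes were -0.64 ± 0.130 (limma adjusted p = 0.00177) and -0.60 ± 0.116 (limma adjusted p = 0.00108). Egfl7 had 8.14 and 8.13 at 6 h and 8.09, 8.07 and 8.10 at 48 h, against 7.79, 7.81 and 7.81 unstimulated. Its rises were 0.33 ± 0.048 (limma adjusted p = 1.5e-04) and 0.28 ± 0.043 (limma adjusted p = 1.8e-04), and its dimmer probe set passed at both times, with 0.34 and 0.33.

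Tek had 7.08 and 7.38 with PE for 6 h, against 7.10, 7.29 and 7.25 unstimulated, and these overlapped (0.02 ± 0.105, limma adjusted p = 0.928). At 48 h it had 6.93, 6.80 and 6.80, below all unstimulated arrays (-0.37 ± 0.094, limma adjusted p = 0.00644). Eng had 9.43, 9.29 and 9.51 with PE for 48 h, against 9.08, 9.13 and 9.14 unstimulated (0.29 ± 0.066, limma adjusted p = 0.0029). At 6 h its 9.24 and 9.38 were also above all unstimulated arrays, but the change of 0.20 ± 0.073 missed the threshold (limma adjusted p = 0.0544). It passed with 4 alternatives, at adjusted p of 0.0224 to 0.0476. Of the 5 dim genes 0 passed at either time in limma, and 1 of them, Flt1 at 6 h (0.23 ± 0.100), had an unadjusted p under 0.05, at 0.0381.

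Between 6 h and 48 h in DMSO with PE, 2 of 9 genes passed, where 34.6% of all genes did (16.3% raised and 18.4% lowered). Arrays did not overlap for 4 of 9 genes, where 53.7% of all genes had no overlap. Tek fell by 0.38 ± 0.105 on the log2 scale (limma adjusted p = 0.0126), and the dim Emcn rose by 0.22 ± 0.063 (limma adjusted p = 0.0165). With replicate 2 of the DMSO and PE group at 6 h left out, the Tek change was -0.23 (limma adjusted p = 0.169). Without replicate 1 of that group, Emcn was at 0.15 (limma adjusted p = 0.165), and without the second array of the DMSO and PE group at 48 h at 0.19 (limma adjusted p = 0.0563). In JQ1 with PE, 3 of 9 genes passed between the times, all lower at 48 h, where 53.6% of all genes passed (27.2% raised and 26.4% lowered). Arrays did not overlap for 4 of 9, where 59.8% of all genes had no overlap. The changes were -0.36 ± 0.116 for Kdr (limma adjusted p = 0.0184), -0.28 ± 0.066 for Eng (limma adjusted p = 0.00251) and -0.23 ± 0.090 for the dim Flt1 (limma adjusted p = 0.0442). The Kdr call ended without replicate 3 of JQ1 with PE at 6 h (-0.31, limma adjusted p = 0.0708) and without replicate 2 of JQ1 with PE at 48 h (-0.22, limma adjusted p = 0.0764). The Flt1 arrays overlapped between the times, and the call ended without replicate 2 or 3 of either JQ1 group, at adjusted p of 0.0868 to 0.161. Several alternatives with all arrays kept also ended it, at limma adjusted p of 0.0531 to 0.0769. The other probe set of Flt1 gave -0.13 (limma adjusted p = 0.255 over probe sets). Of the dim genes that missed the threshold, Tie1 passed between the DMSO times with the second array of DMSO and PE at 6 h left out (-0.37, limma adjusted p = 0.0281), and Pecam1 passed between the JQ1 times without replicate 2 of JQ1 with PE at 6 h (-0.26, limma adjusted p = 0.0142).

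The order of the 5 group means differed from gene to gene. Kdr was highest unstimulated at 7.39, lower with DMSO and PE at 48 h (6.79) and 6 h (6.75), and lowest with JQ1 and PE at 6 h (6.10) and 48 h (5.73). The DMSO with PE groups did not differ beyond their spread (limma adjusted p = 0.836), and each other step of that order passed. With JQ1 and PE, Kdr lay below its unstimulated level by -1.29 ± 0.116 at 6 h and -1.66 ± 0.116 at 48 h (limma adjusted p = 5.5e-07 and 6.6e-08). Against the unstimulated cells 4 of 9 genes passed with JQ1 and PE at 6 h and 5 of 9 at 48 h, where 62.6% and 60.8% of all genes did. In these comparisons, for Kdr and for Eng below, JQ1, PE and time in culture all differ, and their effects cannot be told apart. Eng was highest in DMSO with PE at 48 h (9.41) and 6 h (9.31), then unstimulated (9.12), then JQ1 with PE at 6 h (8.68) and 48 h (8.40). Its upper 2 steps did not pass (limma adjusted p = 0.355 and 0.0544) and its lower 2 did. Eng with JQ1 and PE was below the unstimulated level, by -0.44 ± 0.066 at 6 h and -0.72 ± 0.066 at 48 h (limma adjusted p = 6.7e-05 and 7.8e-07).

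Tek was at 7.23 in DMSO with PE at 6 h and 7.21 unstimulated, which did not differ beyond their spread (limma adjusted p = 0.928), then 6.84 in DMSO with PE at 48 h, 6.58 in JQ1 with PE at 6 h and 6.51 in JQ1 with PE at 48 h, of which the last 2 did not differ beyond their spread (limma adjusted p = 0.542). Egfl7 was highest with JQ1, with 8.41 in JQ1 with PE at 48 h and 8.39 at 6 h, 8.13 in DMSO with PE at 6 h and 8.08 at 48 h, and 7.80 unstimulated. Neither time step passed within JQ1 (limma adjusted p = 0.735) or within DMSO (limma adjusted p = 0.462). The group with the highest Egfl7 was the one with the lowest Kdr. For Pecam1, Flt1, Tie1, Vwf and Emcn no pair of neighbours in the order passed in limma.

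The difference of the JQ1 effects, 48 h minus 6 h, passed for 2 of 9 genes, Eng and the dim Emcn (-0.34 ± 0.085, limma adjusted p = 0.00647), both lower, where 38.8% of all genes passed (20.4% raised and 18.3% lowered). For Kdr it was -0.41 ± 0.174 (limma adjusted p = 0.0856), for Tek 0.31 ± 0.140 (limma adjusted p = 0.105) and for Egfl7 0.07 ± 0.064 (limma adjusted p = 0.427). With the first array of DMSO and PE at 6 h left out, the Tek difference was 0.46 and passed (limma adjusted p = 0.0242).

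The genes with group means most like those of Kdr and Eng were found by the root mean square difference of the 5 group means, each gene centred on its own mean. Nearest to Kdr were Cabcoco1 (0.064 on the log2 scale), Sorcs2, a sorting receptor (0.071), and Pyroxd2 (0.088). Pyroxd2 was dim with JQ1 and PE at 6 h (5.53) and 48 h (5.11). Nearest to Eng were Spryd4 (0.040), Marveld1 (0.041) and Myof, which encodes the membrane repair protein myoferlin (0.042). None of the other endothelial genes was among the 3 nearest of either. Only 3 places were open to all measured genes, so absence from them says little about how alike the patterns were. Whether Kdr and Eng share a pattern with the other endothelial genes was not tested.

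**Figure D3:**
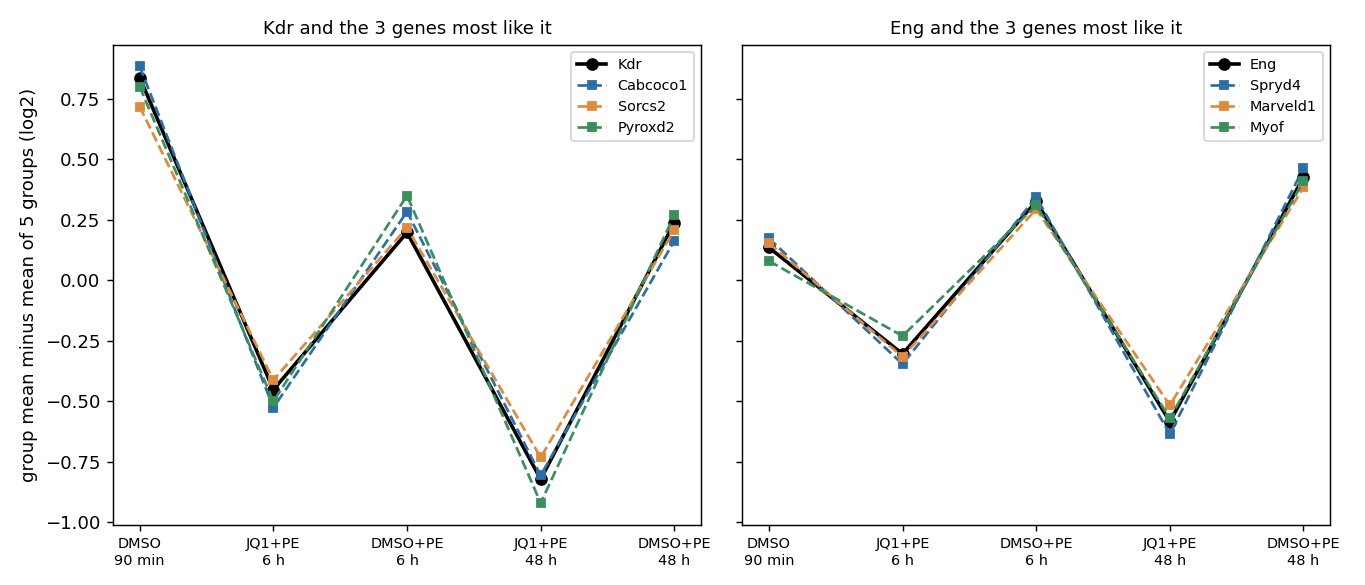
Group means minus the mean of the 5 group means (y axis, log2) for Kdr and its 3 nearest genes (left) and Eng and its 3 nearest genes (right), in 5 groups (x axis); lines join the means of a gene. Kdr is highest unstimulated and Eng highest in DMSO with PE at 48 h, and both are lowest in JQ1 with PE at 48 h.

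Other endothelial genes were counted from lists chosen by what the genes are known for. Of 22 measured surface and junction genes, 10 fell and 1 rose with JQ1 at 6 h, and 12 fell and 1 rose at 48 h, with medians of -0.15 and -0.30. Over all genes 28.8% fell and 25.5% rose at 6 h, and 29.6% fell and 30% rose at 48 h. These shares stand beside this count and each JQ1 count of a list below, and were not tested against them. The medians over all genes were 0.000 and 0.017. Of the 22 genes, 14 were dim in all 5 groups. These include Cd93, Mmrn2 and Selp, which fell at both times, and Ptprb and Sele, which fell at 48 h. They also include Cldn5, which rose at 6 h, and Aplnr, which rose at 48 h. Clec14a, a vessel surface lectin, fell to dim levels, with log2 fold changes of -2.39 ± 0.125 at 6 h and -3.37 ± 0.112 at 48 h (limma adjusted p = 8.3e-09 and 6.2e-11). Thbd, the anticoagulant thrombomodulin, changed by -3.05 ± 0.075 and -2.39 ± 0.067 (limma adjusted p = 2.4e-11 and 1.4e-11). A dim probe set of Thbd also passed, at -2.33 and -1.10, and the other dim one did not (-0.08 and -0.15). S1pr1, a sphingosine phosphate receptor that myocytes also carry, changed by -0.88 ± 0.053 and -1.70 ± 0.047 (limma adjusted p = 2.8e-08 and 1.4e-11), while its dim probe set did not pass (0.05 and -0.20). With PE at 6 h 6 of the 22 rose and 0 fell, where 18.3% of all genes rose. They include Thbd (1.80 ± 0.075) and Procr, the endothelial protein C receptor (1.12 ± 0.136, from a dim unstimulated mean of 5.92). At 48 h of PE 5 rose and 3 fell, where 21.4% rose and 22.6% fell.

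Transcription factors of endothelial cells moved both ways with JQ1. Of 17 measured, 6 fell and 3 rose at 6 h, and 7 fell and 2 rose at 48 h. At 6 h the share that fell is near the 28.8% over all genes. The ETS factor genes differed. Fli1 did not pass at either time (log2 fold changes of 0.11 and -0.06), and Erg, dim in all groups, passed only at 48 h (-0.21 and -0.33). Elk3 changed by -1.10 ± 0.056 (log2) at 6 h and -1.54 ± 0.050 at 48 h (limma adjusted p = 6.1e-09 and 4.8e-11), and Ets1 by -0.31 ± 0.062 and -0.43 ± 0.056, while Ets2 rose by 0.53 ± 0.061 and 0.94 ± 0.054 (limma adjusted p = 8.9e-06 and 9.7e-09). Klf2, a flow-responsive factor, rose by 1.06 ± 0.054 and 0.54 ± 0.048. Its next brightest probe set gave smaller rises that passed (0.24 and 0.19), and its 3 dim ones gave 0.06 to 1.27 at 6 h and 0.01 to 0.57 at 48 h. Klf4 went the other way at 48 h (-0.74 ± 0.055, limma adjusted p = 1.0e-07) and did not pass at 6 h (0.10). Mef2c changed by -0.98 ± 0.059 at 6 h (limma adjusted p = 2.8e-08) and by -0.36 at 48 h, which also passed. Of the other probe sets of Elk3, the brightest (-0.88 and -1.04) and a dim one passed, and another dim one did not (-0.04 and -0.19). With PE at 6 h, 6 of the 17 factors rose and 0 fell, where 18.3% of all genes rose and 18.9% fell. At 48 h of PE 5 fell and 3 rose, where 22.6% fell and 21.4% rose. Among them Ets2 changed by -0.66 ± 0.054 and Ets1 by -0.46 ± 0.056, while Elk3 rose by 0.22 ± 0.050.

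Of 11 arterial, Notch and tip cell genes, 2 fell and 2 rose with JQ1 at 6 h, and 5 fell and 2 rose at 48 h, where 29.6% of all genes fell and 30% rose. With quantile normalization repeated, or with centred arrays, 3 fell and 4 rose at 48 h, which turned that balance. Esm1, a proteoglycan of tip cells, fell by 3.62 ± 0.146 on the log2 scale at 48 h to a dim level (limma adjusted p = 3.5e-10). It was higher with DMSO and PE at 48 h (7.63) than unstimulated (5.01, dim), by 2.62 ± 0.146 (limma adjusted p = 2.5e-08). Angpt2, a TEK ligand, changed by -1.07 ± 0.105 with JQ1 at 48 h, between dim levels (limma adjusted p = 1.5e-06). Hey2, a Notch target that ventricular myocytes also express, rose by 0.69 ± 0.055 (limma adjusted p = 2.1e-07). Of 7 lymphatic and endocardial markers, 4 fell and 1 rose at 48 h, with changes between -0.55 and 0.27, and 3 were dim in all 5 groups. Those that fell were Cdh11 (-0.55), Npr3 (-0.52), Pdpn (-0.47) and the dim Lyve1 (-0.31), and Nfatc1 rose (0.27). The dim Prox1 and Flt4 did not pass.

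Of 21 measured ligands and partners of the receptors, 10 fell and 4 rose with JQ1 at 6 h, where 28.8% of all genes fell and 25.5% rose. At 48 h 11 fell and 5 rose, where 29.6% of all genes fell and 30% rose. Acvrl1, the receptor that endoglin assists, had group means of 4.91 with JQ1 at 6 h, against 7.01 with DMSO, and 3.99 with JQ1 at 48 h, against 6.79 with DMSO. The log2 fold changes were -2.10 ± 0.106 and -2.80 ± 0.095 (limma adjusted p = 6.2e-09 and 7.2e-11), to dim levels. Tgfb3, a ligand of the same receptor family, changed by -1.45 ± 0.069 at 6 h and -1.54 ± 0.062 at 48 h, and Tgfb2 by -1.56 ± 0.048 at 48 h. Tgfbr1, the type I receptor of TGF-beta, rose by 0.55 ± 0.038 and 0.51 ± 0.034, while its dim probe set did not pass (0.18 and 0.10). Vegfb, which binds FLT1, fell by 1.04 ± 0.043 at 6 h (limma adjusted p = 1.2e-09). With PE, Vegfc, a ligand of KDR and FLT4, changed by -0.69 ± 0.049 at 6 h and -0.48 ± 0.044 at 48 h, and the VEGF co-receptor gene Nrp1 by -0.59 ± 0.081 and -0.51 ± 0.073. The other probe set of Nrp1 passed at 48 h (-0.39) but not at 6 h (-0.16).

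**Figure D4:**
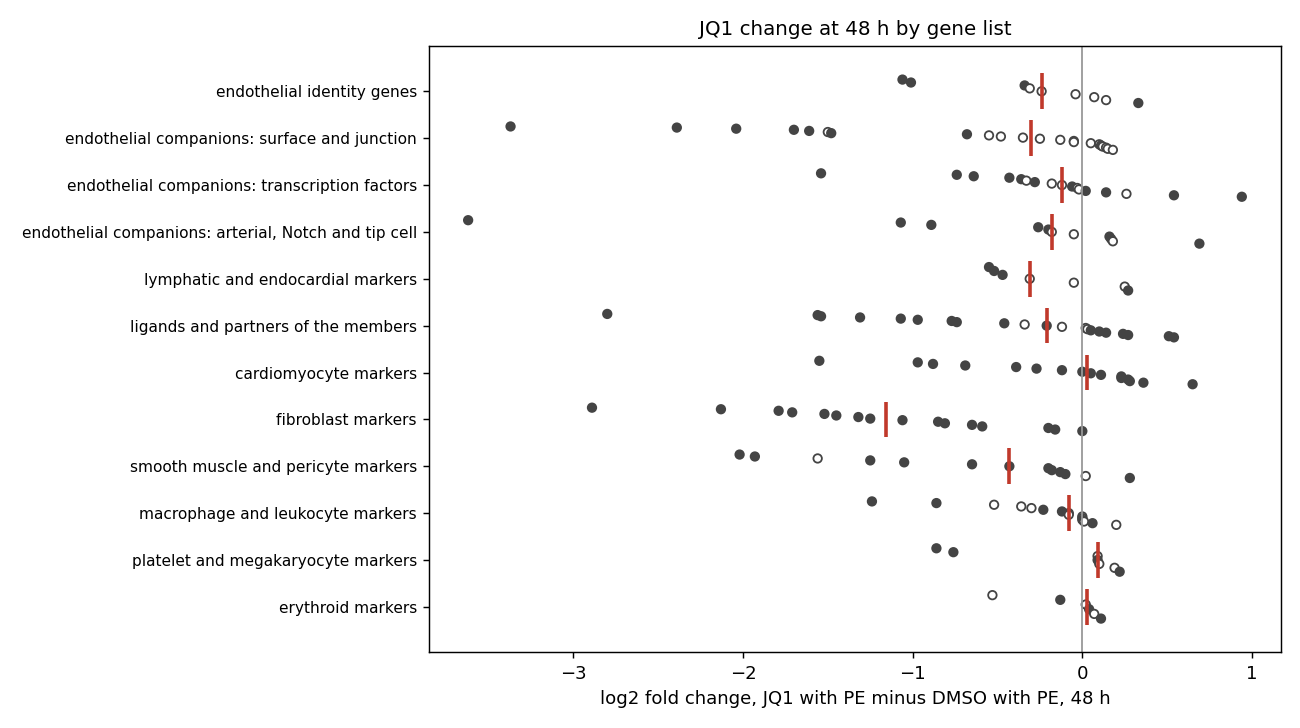
Log2 fold change of JQ1 with PE minus DMSO with PE at 48 h (x axis) for each measured gene of 12 lists (rows), with a red bar at the list median and open circles for genes dim in all 5 groups. The median is -0.24 for the endothelial identity genes and -1.16 for fibroblast markers, and every fibroblast marker lies at or left of 0.

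Markers of other cell types moved with the same JQ1 comparisons. Of 16 fibroblast markers 9 fell and 0 rose at 6 h, and 15 fell and 0 rose at 48 h, with medians of -0.23 and -1.16. With centred arrays 2 rose at 6 h and 1 at 48 h. Over all genes 28.8% fell and 25.5% rose at 6 h, and 29.6% fell and 30% rose at 48 h, the shares against which the counts of the other marker lists here are to be read. Their array means were 10.12 to 10.15 with JQ1 at 6 h, against 10.52 to 10.53 with DMSO, and 9.23 to 9.29 with JQ1 at 48 h, against 10.39 to 10.42 with DMSO. Among them the matrix genes Postn, Dpt and Mfap5 changed by -1.79 ± 0.035, -2.13 ± 0.049 and -2.89 ± 0.077 (log2) at 48 h. Mfap5 fell to a dim level (6.09), which limits the size that can be read. Of 13 smooth muscle and pericyte markers 8 fell and 3 rose at 6 h, and 9 fell and 1 rose at 48 h. Of 15 macrophage and leukocyte markers 5 fell at 6 h and 4 at 48 h, and 0 rose at either time in limma. Of 7 platelet markers 1 fell and 1 rose at 6 h and 2 fell and 1 rose at 48 h, and of 6 erythroid markers 1 fell and 0 rose at each time. Of 16 cardiomyocyte markers 6 fell and 3 rose at 6 h, and 7 fell and 7 rose at 48 h, with changes at 48 h between -1.55 and 0.65. Their array means were 13.04 to 13.08 with JQ1 at 48 h, against 13.22 to 13.23 with DMSO. The part of these cell types in the falls of Kdr, Tek and Eng was not tested.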

How the data were processed

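Total RNA was labelled with biotin for Affymetrix rat arrays, per the labels' protocols. The authors deposited 1 table of log2 expression per probe set (array medians 7.28 to 7.43); summarization and normalization are not given in the sources used here, and the submitters' processing notes name limma without a role. Of 20223 probe sets, 18510 had 1 gene symbol in the platform annotation, 305 several, 1402 none, and 6 were controls. Symbols were updated through RefSeq, which gave 13184 genes, each read on its brightest probe set.

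A mean per group was fitted to all 14 arrays with limma 3.58.1 in R 4.3.3 (9 residual degrees of freedom), with two-sided p-values adjusted by Benjamini-Hochberg over all genes and a threshold of 0.05. The number of arrays limits the precision: the median SE was 0.0604 for 3 against 3 arrays and 0.0675 with the group of 2. Tested on simulated data of 13184 genes for JQ1 at 48 h, the fit found 68% of the 50 genes set to a 1.25-fold change and 92% of those set to 1.5-fold. Only 50 genes each were changed at 1.25-, 1.5-, 2- and 4-fold. In the data 59.6% of genes were called, so these rates need not hold there.

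The genes, lists and tests were chosen with earlier results of these data known. By rule, up to 3 raised and 3 lowered genes per list and comparison could be named, those with the smallest adjusted p and no overlap between arrays, and the 3 genes nearest in group means to each of the 9 genes that spanned at least 1 log2 unit. Alternatives were quantile normalization, centring, the mean of probe sets, leaving out dim genes, fitting only the groups compared, a trended prior, a replicate block and leaving out each array. Same-numbered arrays did not deviate together (correlations of -0.267 to 0.18 over 26 pairs), so the numbers were not taken as pairs.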

Additional observations from a re-analysis of the deposited data

Results flagged for a closer look

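The JQ1 effect differed between 48 h and 6 h, by the test of the difference itself in limma, for 2 of the endothelial identity genes. For Eng the difference was -0.38 and for the dim Emcn -0.34. Of 18 genes named at both JQ1 times from the lists of endothelial, lymphatic and endocardial genes and of ligands and partners, 9 also differed; genes of the marker lists of other cell types were not part of this count. S1pr1 (-0.82), Clec14a (-0.98), Elk3 (-0.43), Esm1 (-2.21), Pdpn (-0.20) and Acvrl1 (-0.71) fell further at 48 h. The rise of Klf2 was smaller at 48 h (-0.52), that of Ets2 larger (0.41), and the fall of Thbd smaller (0.66). The Klf2 value is that of its brightest probe set. The next brightest had rises much closer to each other, 0.24 at 6 h and 0.19 at 48 h. Clec14a, Acvrl1 and Esm1 were dim with JQ1 at both times and Thbd at 48 h, which limits the size that can be read. Esm1 was also dim in DMSO with PE at 6 h (6.22), against 7.63 in DMSO with PE at 48 h. Over all genes 38.8% passed the test of the difference. The 18 genes had been picked by small JQ1 adjusted p in these same arrays, so their share cannot be compared with it.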

How the results depend on the processing

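Counts of endothelial identity genes past the threshold stayed within 1.5 times of the reported count with most alternatives. The exceptions were late against early PE, which gave 1 gene in place of 2 with dim genes left out, with only the groups compared and with a trended prior, and the difference of JQ1 effects, which gave 1 in place of 2 with dim genes left out, where Emcn is not tested. Leaving out 1 array gave 1 to 2 genes for late against early PE, 1 to 3 for late against early JQ1, 2 to 3 for the difference of JQ1 effects and 5 to 6 for JQ1 at 48 h. It gave the reported 2, 4 and 4 for PE at 6 h, PE at 48 h and JQ1 at 6 h. Where an array of DMSO with PE at 6 h is left out, the lone array is assumed to vary like the other groups. For 2 calls an alternative gave the opposite sign without passing. The other probe set of Flt1 gave 0.04 ± 0.086 at 48 h of JQ1 (limma adjusted p = 0.76 over probe sets). Tnnc1, a cardiomyocyte marker raised by 0.08 at 6 h of JQ1, was at -0.02 on repeating quantile normalization (limma adjusted p = 0.7). The cause was not tested. The call of Flt1 at 48 h of JQ1 also ended with quantile normalization (adjusted p = 0.0526), centring (0.227), the mean of its probe sets (0.215) and the replicate block (0.0582), and without replicate 2 of DMSO with PE or replicate 2 or 3 of JQ1 with PE at 48 h (0.0716 to 0.142). Centring raised Vwf at 48 h of JQ1 past the threshold (0.24, adjusted p = 0.0163). It moved the median of all genes by 0.093 at 6 h and 0.099 at 48 h of JQ1, and the share of calls that were raised to 61.1% and 63.7%, against 47% and 50.4% as reported; under centring Kdr, Tek, Eng and Egfl7 kept their JQ1 calls. With the replicate block, 5 of 9 genes passed at 48 h of JQ1 and 2 for late against early JQ1, and 7728 genes in all passed at 48 h of JQ1, against 7858 without it; it changed no other call of these genes than those of Flt1.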
